A study of Mus musculus with 7 samples.

Results

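The glucocorticoid-responsive genes described here are the receptors for corticosterone, Nr3c1 and Nr3c2, and 8 of their well-known target genes, Fkbp5, Tsc22d3, Sgk1, Klf9, Errfi1, Cdkn1a, Mt1 and Mt2. They were listed by gene symbol, and each of the 10 symbols matched exactly 1 of the 54309 genes in the table. They were measured by RNA sequencing in dorsal root ganglia, which hold the cell bodies of sensory neurons, at 2 clock times in C57bl/6 mice of 6-8 weeks that are labelled male. Every mouse had an injury of the sciatic nerve 72 h before its L4-6 ganglia were taken, and there is no uninjured group. Injury and dissection fell at Zeitgeber time (ZT, hours after lights on) 20 in 4 samples and at ZT8 in 3 samples, so the clock time of the injury and that of the dissection cannot be told apart. The ganglia were digested with enzymes and passed through an albumin gradient to enrich neurons before RNA was taken, and the labels do not say how many mice made up a sample.

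Corticosterone, the main glucocorticoid of mice, is released by the adrenal cortex in a daily rhythm that peaks around the start of the dark, active phase. It enters cells and binds the glucocorticoid receptor, encoded by Nr3c1, and the mineralocorticoid receptor, encoded by Nr3c2, which binds it more tightly and is largely occupied even at the daily trough. The bound receptor leaves a complex of HSP90 and co-chaperones, moves to the nucleus and binds glucocorticoid response elements, many of them far from gene starts. ZT8 lies in the later part of the light phase and ZT20 in the later part of the dark phase. Corticosterone itself was not measured in the data used here.

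The deposited values are TPM, shares of all transcripts that are corrected for transcript length and scaled to the same sum in every sample. Depth is therefore unknown, and the counting error of each value with it. The number of genes above 0 TPM was 24192 to 25238 in the ZT20 samples and 18297 to 22973 in the ZT8 samples, lowest in ZT8 replicate 2. All samples are labelled male, but the Y-linked transcripts Ddx3y, Eif2s3y and Uty were listed at 0 in ZT20 replicates 3 and 4 and were at 3.69 to 46.2 TPM in the other 5 samples. Kdm5d, also Y-linked, was at 0.0162 and 0.00868 TPM in those 2 libraries and at 0.921 to 5.63 TPM in the others. Xist was at 2.21 and 2.30 TPM in those 2 libraries and at 1.08 TPM in ZT20 replicate 2, which also held Y-linked transcripts. Library identifiers were numbers at ZT20 and letters at ZT8, so any batch behind them cannot be told apart from the clock time. Markers of neurons were present in every sample, with a sum over 12 genes of 19650 to 24300 TPM at ZT20 and 15110 to 22130 TPM at ZT8. Of these 12, 10 had a positive difference, 3 were called higher at ZT20 by limma and 0 lower, with a median log2 difference of 0.298. Of 9 macrophage markers 0 were called higher and 1 lower, and of 8 Schwann cell markers 1 higher and 0 lower. Satellite glia markers summed over 10 genes to 8024 to 9711 TPM at ZT20 and 13110 to 15990 TPM at ZT8, and the groups did not overlap (two-sided exact permutation p = 0.0286, the smallest that 4 against 3 samples can give; 0.129 after Benjamini-Hochberg adjustment over 9 marker sums). Most of that sum was Apoe, at 6261 to 7615 TPM against 10620 to 13560 TPM: 3 of the 10 markers fell, Apoe and Fabp7 among them, 5 had a positive difference, and the median log2 difference of the list was −0.10. The summed plasma cell markers, 267 to 486 TPM against 496 to 936 TPM with the same p-values, differed through Jchain and Mzb1, while Xbp1, Sdc1 and Derl3 differed by −0.0047 to 0.044 on the log2 scale. In bulk samples, fewer cells of a type and less RNA per cell cannot be told apart. No marker of the 9 lists was at 0 in every sample, and the part of cell mixture in the differences between clock times was not tested beyond a fit with a marker score as covariate.

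Sequence before the gene start is shown for 3 members, because their receptor or inducer acts through short motifs that can be read directly. RefSeq promoter entries of 300 bases, from 250 before to 50 after a start on GRCm38.p6, existed for 9 of the 10 members. The glucocorticoid response element was searched on both strands as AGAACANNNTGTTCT, one arm of it as AGAACA (which the full element contains), and the metal response element, bound by the factor MTF1 in metallothionein genes, as TGCACNC or TGCGCNC. Of 32851 promoter entries of all genes, 3 (0.00913%) held the full glucocorticoid element, and 1 of these 3 belongs to Sgk1. It lies at 1 of the 6 Sgk1 starts, 189 bases before it, and is in capitals in the 250 bases at chr10:21993640-21993889 on the plus strand. The other full matches belong to Acnat2 and Gm35041, both listed at 0 TPM in all 7 samples. Variants of this exact string were not searched, so the other members are not shown to lack an element. The single arm was found in 18.97% of all entries, and among the members in entries of Sgk1 and Tsc22d3 only. The metal element was found 4 times in the Mt2 entry and 3 times in the Mt1 entry, where 25.7% of all entries held at least 1, 1.97% at least 3 and 0.518% at least 4. The 250 bases before each start hold 3 of the Mt2 matches and 1 of the Mt1 matches, in capitals at chr8:94172368-94172617 and chr8:94178839-94179088, both on the plus strand. A match is a string of letters and not a site shown to be bound.
Sgk1: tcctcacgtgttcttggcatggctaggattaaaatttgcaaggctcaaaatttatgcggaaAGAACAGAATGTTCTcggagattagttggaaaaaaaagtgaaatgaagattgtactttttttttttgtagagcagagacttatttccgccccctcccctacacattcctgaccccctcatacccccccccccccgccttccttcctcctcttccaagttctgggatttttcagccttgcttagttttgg
Mt2: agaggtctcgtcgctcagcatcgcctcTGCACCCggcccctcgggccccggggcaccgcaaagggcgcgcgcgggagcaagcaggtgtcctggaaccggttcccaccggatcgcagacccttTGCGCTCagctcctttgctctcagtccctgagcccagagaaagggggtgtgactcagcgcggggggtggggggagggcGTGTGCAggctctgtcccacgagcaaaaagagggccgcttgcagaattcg
Mt1: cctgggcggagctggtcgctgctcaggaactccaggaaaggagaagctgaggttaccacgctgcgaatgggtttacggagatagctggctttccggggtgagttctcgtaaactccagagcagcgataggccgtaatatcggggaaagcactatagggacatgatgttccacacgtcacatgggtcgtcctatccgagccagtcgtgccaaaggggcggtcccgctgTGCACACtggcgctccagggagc

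The 10 genes spanned nearly 2 orders of magnitude in abundance. Over the 7 samples the mean was highest for Tsc22d3 (290 TPM), followed by Cdkn1a (218 TPM), Mt1 (126 TPM), Mt2 (22.2 TPM), Klf9 (20.1 TPM), Nr3c1 (15.3 TPM), Errfi1 (14.4 TPM), Sgk1 (12.2 TPM), Fkbp5 (9.92 TPM) and Nr3c2 (3.61 TPM). Of the neighbours in this order only 2 pairs had ranges that did not overlap over the 7 samples, Mt1 above Mt2 and Fkbp5 above Nr3c2. The plot of TPM by sample shows the values behind the comparisons that follow.

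**Figure D1:**
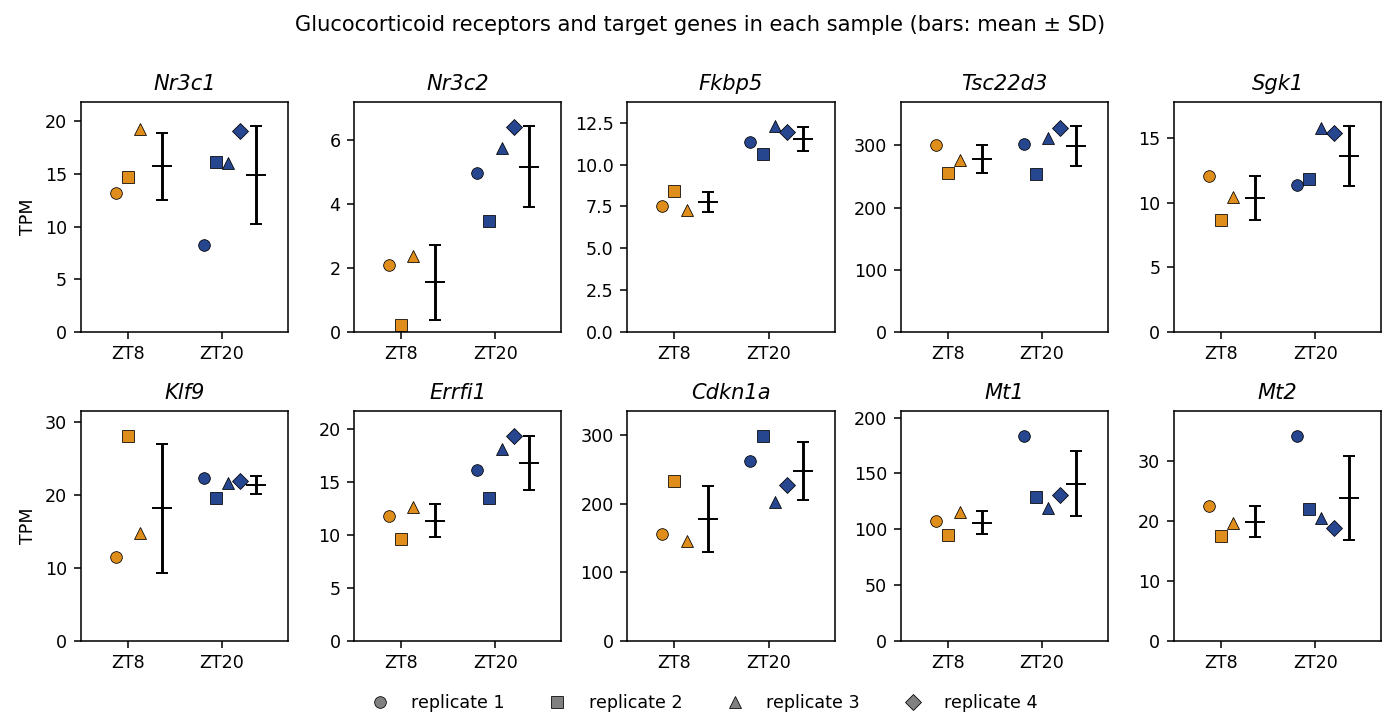
TPM of the 2 receptor genes and 8 target genes (y axis, from 0) in the 3 ZT8 and 4 ZT20 samples (x axis); marker shapes give the replicate number and the bars the mean ± SD of each group. The ZT20 values lie above all ZT8 values for Nr3c2, Fkbp5, Errfi1 and Mt1, and the groups overlap for the other genes.

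The comparison of ZT20 with ZT8 asks which of these transcripts differ with the clock time at which the nerve was injured and the ganglia taken. Nr3c2 was the only member called by limma (adjusted p under 0.05 over 14800 tested genes), and it was higher at ZT20. All 10 members had a mean of at least 1 TPM and were tested, so 1 of 10 was called higher and 0 of 10 lower, beside 12.8% of all tested genes called higher, 3.61% called lower and 16.4% called in either direction. The share among these genes was thus close to that of all genes. The unadjusted limma p was under 0.05 for 5 of the 10, beside 34.6% of all tested genes. The difference in log2(TPM + 1), ZT20 minus ZT8, was positive for 9 of the 10 with a median of 0.38, beside a positive difference for 66.4% of all tested genes and a median of 0.23. Under median-ratio scaling 7 of the 10 were positive with a median of 0.135, and under quantile normalization 8 of the 10 with a median of 0.17. Groups did not overlap, with ZT20 above, for 4 of the 10 (24.5% of all tested genes), and with ZT20 below for 0 of the 10 (8.72%). Another scaling moves the common shift: median-ratio scaling took the median of all genes to 0.014 and quantile normalization to 0.0046. Of all called genes 78.1% were higher at ZT20 as deposited, 46.4% under median-ratio scaling and 55.7% under quantile normalization.

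**Figure D2:**
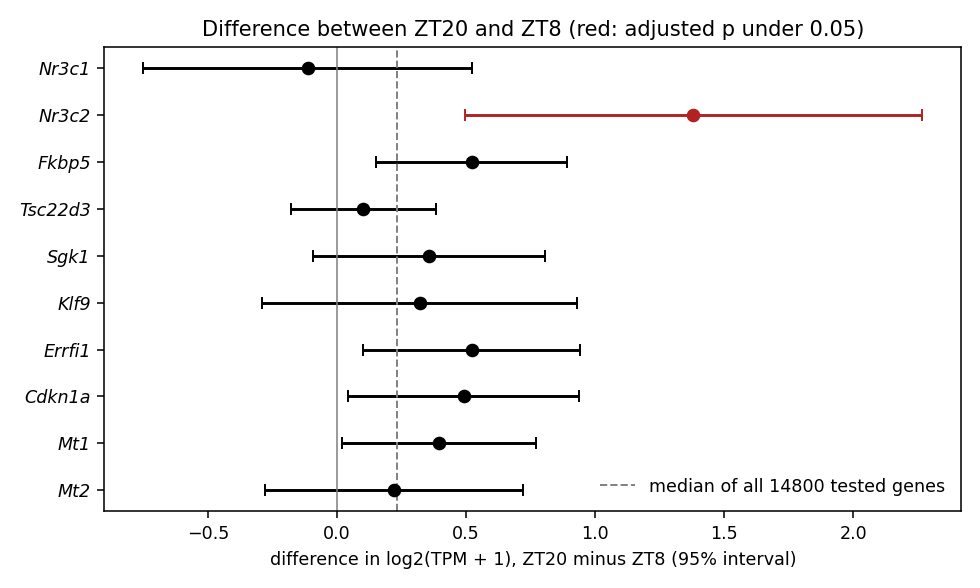
Difference in log2(TPM + 1), ZT20 minus ZT8 (x axis), for each gene (y axis) with its 95% limma interval, not adjusted for the number of genes; the dashed line is the median of all 14800 tested genes, 0.23. Nr3c2 (red) is the only gene with an adjusted p under 0.05, and the intervals of Nr3c1, Tsc22d3, Sgk1, Klf9 and Mt2 include 0.

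Of the receptors, Nr3c1, which encodes the glucocorticoid receptor, did not differ detectably. It reached 8.29, 16.1, 16.1 and 19.1 TPM in replicates 1 to 4 of ZT20 and 13.2, 14.7 and 19.3 TPM in replicates 1 to 3 of ZT8. ZT20 replicate 1 was the lowest of all 7 samples, and the other 3 ZT20 values lay within the ZT8 range. The log2 difference was −0.11 (SE 0.28, 95% interval −0.75 to 0.52, limma adjusted p = 0.797). It was negative in 17 of the 19 alternatives, at −0.35 under median-ratio scaling, −0.39 under quantile normalization and without ZT20 replicates 3 and 4, and −0.47 with the length trend removed, none past the threshold. It was positive without ZT20 replicate 1 (0.13) and without ZT8 replicate 3 (0.034).

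Nr3c2, which encodes the mineralocorticoid receptor, rose at ZT20. It reached 4.97, 3.48, 5.76 and 6.42 TPM in replicates 1 to 4 of ZT20 and 2.09, 0.207 and 2.36 TPM in replicates 1 to 3 of ZT8. Every ZT20 sample was above every ZT8 sample, and the lowest value was in ZT8 replicate 2, the library with the fewest genes above 0 TPM. The gene averaged 5.16 ± 1.27 TPM (± SD throughout) in the 4 ZT20 samples against 1.56 ± 1.18 TPM in the 3 ZT8 samples, a ratio of 3.32, and the log2 difference was 1.38 (SE 0.39, limma adjusted p = 0.0444). The call was close to the threshold. It was kept in 6 of the 18 alternatives that tested the gene, and the difference was positive in all 18, from 0.88 under quantile normalization to 2.12 with 0.1 added in place of 1 (limma adjusted p = 0.0771 and 0.0784). Leaving out any 1 of the 4 ZT20 samples ended it (limma adjusted p = 0.056 to 0.124), as did leaving out ZT20 replicates 3 and 4 together (log2 difference 1.15, limma adjusted p = 0.349), while leaving out any ZT8 sample kept it. Without ZT8 replicate 2 the log2 difference was 0.91 (limma adjusted p = 0.0365). Nr3c2 has a long transcript (5916 nt in GENCODE M21), and longer transcripts had larger differences in these libraries: the median difference was 0.56 in the tenth of genes by length that holds Nr3c1 and Nr3c2. With the length trend of each sample removed the log2 difference of Nr3c2 was 1.06 (limma adjusted p = 0.106). With a marker score as covariate, which sets neuron markers against those of other cells, it was 0.91 (limma adjusted p = 0.400). Nr3c2 overlaps small noncoding genes and an RNA from its own promoter region on the opposite strand.

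The receptor transcripts can be compared within a library, which takes out most of the scaling between samples (not all, since 1 is added to each TPM), and the 2 genes have similar transcript lengths (6436 nt for Nr3c1). In TPM, Nr3c1 was 1.67, 4.64, 2.79 and 2.97 times Nr3c2 in ZT20 replicates 1 to 4, and 6.30, 71.0 and 8.17 times in ZT8 replicates 1 to 3. The 3 ZT8 libraries all had a larger excess of Nr3c1 than the 4 ZT20 libraries. As log2 of (TPM + 1), the ratio averaged 1.34 ± 0.54 in the 4 ZT20 libraries against 2.83 ± 0.78 in the 3 ZT8 libraries, which differ by −1.49. The two-sided exact permutation p over 35 splits was 0.0286, the smallest this design can give, and 0.0571 after Benjamini-Hochberg adjustment over the 2 ratios tested. The difference was −1.52 with the length trend removed and −1.54 without ZT20 replicates 3 and 4. With 0.1 added in place of 1 it was −2.24 (exact permutation p again 0.0286). It ran from −1.81 to −1.06 when 1 sample was left out at a time, where no p under 0.05 can be reached. ZT20 replicate 1 had the lowest ratio and the lowest Nr3c1, and ZT8 replicate 2 the highest ratio and the lowest Nr3c2.

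**Figure D3:**
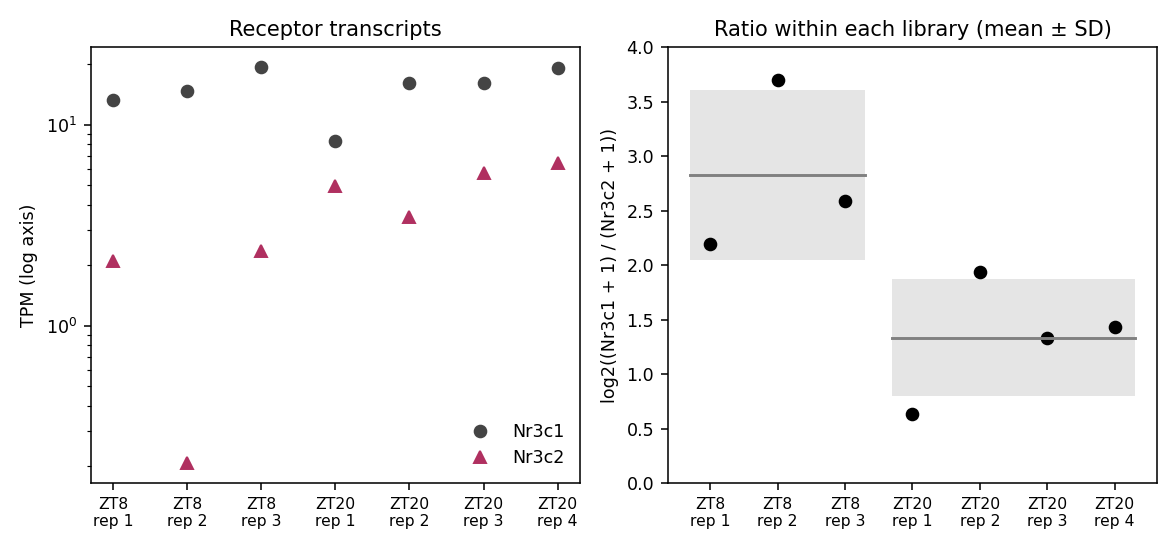
Left, TPM of Nr3c1 (circles) and Nr3c2 (triangles) on a log axis in each sample; right, log2 of the ratio of (Nr3c1 + 1) to (Nr3c2 + 1) in each library, with the group mean (line) and SD (band). Nr3c1 is above Nr3c2 in all 7 libraries, and the 3 ZT8 ratios lie above the 4 ZT20 ratios.

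None of the 8 target genes passed the adjusted limma threshold. Each had a positive difference, as did 66.4% of all tested genes. The log2 differences of these targets ran from 0.10 to 0.52. Simulated shifts of 0.6 in 200 genes gave 0 calls with the same procedure, so a missing call does not show that a target was unchanged. The unadjusted limma p was under 0.05 for 4 of the 8, beside 34.6% of all tested genes. With limma's array weights 4 of the 8 passed the adjusted threshold (Fkbp5, Klf9, Errfi1 and Cdkn1a). That fit called 3899 of all 14800 genes, 2982 of them higher, against 2433 and 1899 without the weights. With the marker score as covariate the log2 difference of Mt1 was 0.19, that of Mt2 0.039, that of Klf9 0.48 and that of Cdkn1a 0.73, none past the threshold, and those of the other targets moved by less than 1.5 times. Fkbp5, Errfi1 and Mt1 had all ZT20 values above all ZT8 values, as did 24.5% of all tested genes. The median log2 difference of the 8 targets was 0.38, beside 0.23 for all tested genes. Fkbp5, Klf9 and Cdkn1a also overlap small or noncoding genes in GENCODE M21, and Tsc22d3, Sgk1 and Mt1 overlap none. Under median-ratio scaling the difference turned negative for Tsc22d3 and Mt2, and under quantile normalization for Mt2.

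Fkbp5 encodes a co-chaperone that lowers the affinity of the glucocorticoid receptor for its hormone and is itself induced by the receptor, which makes it a common readout of glucocorticoid action. It reached 11.4, 10.6, 12.3 and 11.9 TPM in replicates 1 to 4 of ZT20 and 7.50, 8.44 and 7.31 TPM in replicates 1 to 3 of ZT8. The groups were well separated and each was tight, with a coefficient of variation of 6.30% at ZT20 and 7.80% at ZT8. It averaged 11.5 ± 0.728 TPM in the 4 ZT20 samples against 7.75 ± 0.605 TPM in the 3 ZT8 samples. The log2 difference of 0.52 (SE 0.16, 95% interval 0.15 to 0.89) did not pass (limma adjusted p = 0.0607). It passed in 3 of the 19 alternatives. These were the fits without ZT8 replicate 2 (0.58, limma adjusted p = 0.0294), without the intensity trend (0.52, limma adjusted p = 0.0435) and with array weights (0.60, limma adjusted p = 0.0154). The difference was 0.29 under median-ratio scaling (limma adjusted p = 0.244) and 0.18 under quantile normalization (limma adjusted p = 0.470).

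Tsc22d3 encodes GILZ, a leucine zipper protein that carries part of the anti-inflammatory action of glucocorticoids. It was the most abundant member and reached 302, 254, 312 and 328 TPM in replicates 1 to 4 of ZT20 and 301, 255 and 277 TPM in replicates 1 to 3 of ZT8. Replicate 2 was the lowest sample of each group. ZT20 replicates 1, 3 and 4 lay above every ZT8 sample, replicate 1 only just (301.8 TPM against 300.6 TPM in ZT8 replicate 1). The groups overlapped through ZT20 replicate 2, the lowest of all 7 samples. The log2 difference was 0.10 (SE 0.12, 95% interval −0.18 to 0.38, limma adjusted p = 0.585). The interval leaves room for an increase of up to 0.38 and a decrease of up to 0.18 on the log2 scale. The difference was −0.0027 without ZT20 replicates 3 and 4 and −0.15 under median-ratio scaling.

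Sgk1 encodes a kinase that regulates ion channels and transporters downstream of both receptors. It holds the only exact match to the full glucocorticoid element among the members' promoter entries. It reached 11.3, 11.8, 15.8 and 15.4 TPM in replicates 1 to 4 of ZT20 and 12.03, 8.63 and 10.5 TPM in replicates 1 to 3 of ZT8. ZT20 replicates 3 and 4, the libraries with Y-linked transcripts at or near 0, were the highest of the 7, and the other 2 ZT20 samples lay within the ZT8 range. The log2 difference of 0.35 (SE 0.20) did not pass (limma adjusted p = 0.234), and it was 0.12 under median-ratio scaling, 0.048 under quantile normalization and 0.16 without ZT20 replicates 3 and 4 (limma adjusted p = 0.792).

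Klf9 encodes a zinc finger repressor induced by glucocorticoids and thyroid hormone, and it also restrains axon growth in some neurons. It reached 22.4, 19.7, 21.7 and 22.0 TPM in replicates 1 to 4 of ZT20 and 11.6, 28.2 and 14.8 TPM in replicates 1 to 3 of ZT8. The ZT20 values were close together, with a coefficient of variation of 5.69%, whereas ZT8 replicate 2 was the highest of all samples and the other ZT8 samples the lowest (48.5% within ZT8). With all samples the log2 difference was 0.32 (SE 0.27, limma adjusted p = 0.423). Without ZT8 replicate 2 it was 0.67 (limma adjusted p = 0.0206), and without ZT8 replicate 1 it was 0.062 (limma adjusted p = 0.875). The size of the difference thus depended on which ZT8 library was kept, and it was 0.080 under median-ratio scaling, 0.054 under quantile normalization and 0.13 with the length trend removed.

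Errfi1 encodes MIG6, an inhibitor of the EGF receptor family. It reached 16.1, 13.5, 18.1 and 19.4 TPM in replicates 1 to 4 of ZT20 and 11.8, 9.62 and 12.6 TPM in replicates 1 to 3 of ZT8. All ZT20 samples were above all ZT8 samples, with a gap of less than 1 TPM between ZT20 replicate 2 and ZT8 replicate 3. The log2 difference of 0.52 (SE 0.18) did not pass (limma adjusted p = 0.0843), and it was 0.29 under median-ratio scaling and 0.23 under quantile normalization. An antisense gene overlaps Errfi1 in GENCODE M21, and whether reads were assigned by strand is not stated.

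Cdkn1a encodes the cell cycle inhibitor p21, which is induced by glucocorticoids and by p53 and belongs to the genes that sensory neurons raise after axon injury. It reached 262, 299.6, 203 and 227 TPM in replicates 1 to 4 of ZT20 and 156, 233 and 146 TPM in replicates 1 to 3 of ZT8. Replicate 2 was the highest sample of each group, and ZT8 replicate 2 lay within the ZT20 range. The log2 difference of 0.49 (SE 0.20) did not pass (limma adjusted p = 0.117), and it was 0.24 under median-ratio scaling. It was 0.70 without ZT8 replicate 2 and then passed (limma adjusted p = 0.0239).

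Mt1 and Mt2 encode metallothioneins, small metal-binding proteins induced by zinc, oxidative stress and glucocorticoids, and they lie next to each other on chromosome 8. Mt1 reached 184, 129, 119 and 131 TPM in replicates 1 to 4 of ZT20 and 107, 94.7 and 115 TPM in replicates 1 to 3 of ZT8. Mt2 was at 34.2, 22.0, 20.4 and 18.8 TPM and at 22.6, 17.5 and 19.6 TPM in the same order. ZT20 replicate 1 was the highest of the 7 samples for both genes and ZT8 replicate 2 the lowest, and only Mt1 separated the groups. How reads that fit both of these similar genes were shared is not stated, and an antisense gene overlaps Mt2. The log2 difference was 0.40 (SE 0.17) for Mt1 (limma adjusted p = 0.129) and 0.22 (SE 0.22) for Mt2 (limma adjusted p = 0.499).

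Under median-ratio scaling the Mt1 difference was 0.15. Leaving out ZT20 replicate 1 took the Mt1 difference to 0.26 and the Mt2 difference to 0.041. These are the shortest transcripts among the members (1085 and 511 nt), and the median difference of the tenth of genes by length that holds Mt1 was −0.13. With the length trend removed the Mt1 difference was 0.70 and passed (limma adjusted p = 0.0426), and that of Mt2 was 0.58 (limma adjusted p = 0.159). Within each library Mt1 was 4.75 to 6.96 times Mt2. The log2 ratio averaged 2.53 ± 0.15 in the 4 ZT20 libraries against 2.36 ± 0.15 in the 3 ZT8 libraries, which differ by 0.17 with a two-sided exact permutation p of 0.171 (also 0.171 after adjustment over the 2 ratios). The brain-enriched paralogue Mt3, which sits beside them and was in the list of paralogues, averaged 274 ± 49.2 TPM in the 4 ZT20 samples against 198 ± 11.3 TPM in the 3 ZT8 samples, again highest in ZT20 replicate 1, at 344 TPM (log2 difference 0.45, limma adjusted p = 0.0675).

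**Figure D4:**
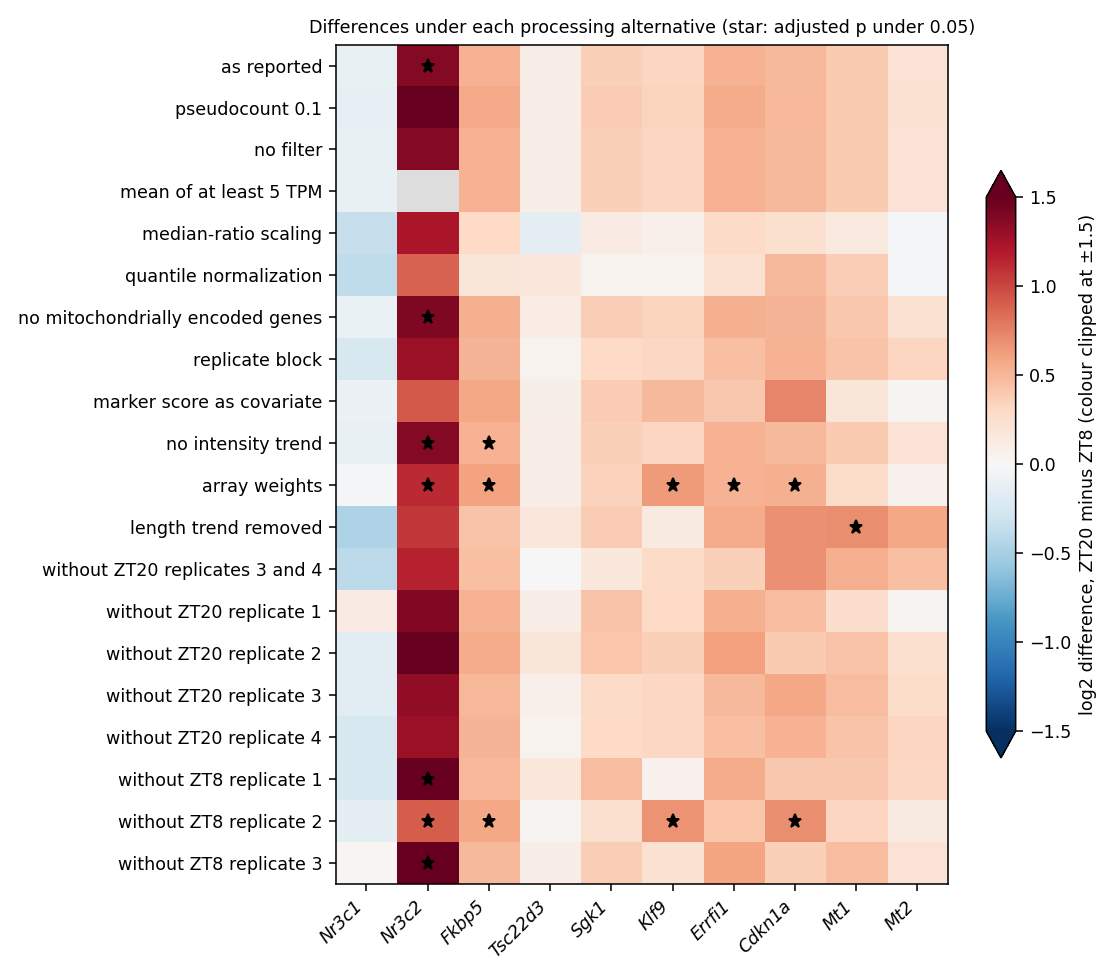
Log2 difference, ZT20 minus ZT8 (colour, clipped at ±1.5), of each gene (columns) as reported and under each of 19 processing alternatives (rows); stars mark an adjusted p under 0.05 and grey a gene that was not tested. Nr3c2 is positive in every row that tested it, and ZT8 replicate 2 and the array weights change the calls of Fkbp5, Klf9 and Cdkn1a.

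Other genes of the pathway were read from lists of genes with known roles. Of the chaperones and co-chaperones that hold the receptor ready for hormone, 0 of 12 passed in either direction (3 had an unadjusted limma p under 0.05, the replicate block gave 1 higher and 1 lower, and leaving out ZT8 replicate 1 gave 1 lower). The median log2 difference of these 12 was 0.11. It was −0.137 under median-ratio scaling, −0.155 with the marker score as covariate and −0.0483 without ZT8 replicate 2. The other alternatives left it positive, up to 0.309 without ZT8 replicate 3. Bag1, a co-chaperone that can limit receptor action, averaged 56.2 ± 27.3 TPM in the 4 ZT20 samples against 214 ± 159 TPM in the 3 ZT8 samples, with overlapping groups (log2 difference −1.66, limma adjusted p = 0.0904). Bag1 was the gene called lower in both of those fits, at −1.63 with the replicate block and −2.42 without ZT8 replicate 1 (limma adjusted p = 0.0205 and 0.0191), and it was −1.07 without ZT8 replicate 2 (limma adjusted p = 0.219).

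Of the coactivators and corepressors that the receptors recruit, 7 of 10 rose at ZT20 and 0 fell, with a median log2 difference of 0.81. Of all tested genes 12.8% were called higher, with a median difference of 0.23. In the tenth of genes by length that holds Nr3c1 and Nr3c2 the share was 27.2%, with a median difference of 0.56. Ncor1, a corepressor, averaged 34.5 ± 1.42 TPM in the 4 ZT20 samples against 17.9 ± 1.97 TPM in the 3 ZT8 samples (log2 difference 0.91, limma adjusted p = 0.00673). The acetyltransferase gene Crebbp differed by 1.19 and the chromatin remodeller gene Smarca4 by 0.75 (limma adjusted p = 0.0158 and 0.0208). All 10 coregulators have long transcripts, from 6376 nt for Smarca4 to 10820 nt for Crebbp. With the length trend removed 1 of the 10 passed, Ncor1 at 0.50 (limma adjusted p = 0.0493). Median-ratio scaling and quantile normalization each left 3 of the 10, and with the marker score as covariate or without ZT20 replicates 3 and 4, 0 passed (7 had an unadjusted limma p under 0.05 in each). The median of the list was 0.981 and 0.843 in these 2 fits, and without ZT20 replicates 3 and 4 limma called 0 genes of any kind. The list median was 0.417 with the length trend removed, 0.596 under median-ratio scaling and 0.565 under quantile normalization. Leaving out ZT20 replicate 3 or ZT20 replicate 4 left 1, and the other single samples left 4 to 7.

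Of the enzymes and transporters that set the local level of steroid, 0 of 7 tested genes passed, with 2 at an unadjusted limma p under 0.05, and of the alternatives median-ratio scaling, the replicate block, array weights and leaving out ZT8 replicate 3 called 1 lower, while 2 others called 1 higher. Abcb1b, a transporter that exports corticosteroids from cells, was at 1.68 TPM against 0.275 TPM (limma adjusted p = 0.0506) and was the gene called higher in those 2. Hsd11b1, whose enzyme regenerates active corticosterone inside cells, averaged 6.02 ± 3.35 TPM in the 4 ZT20 samples against 3.57 ± 1.80 TPM in the 3 ZT8 samples (log2 difference 0.59, limma adjusted p = 0.297). ZT20 replicate 1 held 11.02 TPM, above the 4.02 to 4.80 TPM of replicates 2 to 4, and without it the difference was 0.30 (limma adjusted p = 0.573). Hsd11b2, whose enzyme inactivates it, had a mean under 1 TPM and was not tested. Tspo, a mitochondrial outer membrane protein linked to steroid synthesis and raised in glia and macrophages after injury, averaged 78.5 ± 19.9 TPM in the 4 ZT20 samples against 158 ± 60.6 TPM in the 3 ZT8 samples, with overlapping groups (limma adjusted p = 0.0599). It was the gene called lower in those 4 alternatives, with log2 differences of −1.30 to −0.84, and with the marker score as covariate its difference was −0.41.

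Among 25 tested genes of a wider list of glucocorticoid-induced genes, 1 rose and 1 fell, 13 had a positive difference and the median was 0.0097. Under median-ratio scaling the median was −0.20 with 1 higher and 3 lower, and under quantile normalization it was −0.30 with 0 higher and 3 lower. Summed immediate early genes, which tissue dissociation also induces, were at 920 to 1276 TPM at ZT20 and 1252 to 1534 TPM at ZT8. Of these 8 genes 2 were called lower at ZT20 and 0 higher, with a median log2 difference of −0.30, and their part in these values was not tested. Angptl4, a secreted inhibitor of lipoprotein lipase, fell: it was at 11.6 to 15.3 TPM in the 4 ZT20 samples and at 24.8 to 28.9 TPM in the 3 ZT8 samples. Its log2 difference was −0.94 (SE 0.16, limma adjusted p = 0.00954). Lcn2, the secreted iron-siderophore carrier lipocalin 2, rose: it reached 86.1, 15.4, 14.1 and 17.4 TPM in replicates 1 to 4 of ZT20 and 2.86 to 5.08 TPM at ZT8 (log2 difference 2.43, SE 0.58, limma adjusted p = 0.0261). Its call was lost without ZT8 replicate 3 and without ZT20 replicate 4 (limma adjusted p = 0.0713 and 0.0591), without a filter on low genes (0.0793) and under quantile normalization (0.0525). Both calls were lost with the marker score as covariate (−0.98 for Angptl4 and 2.12 for Lcn2) and without ZT20 replicates 3 and 4 (−1.08 and 3.02), where limma called 0 of 14687 genes (2378 at an unadjusted p under 0.05). Cebpd, a transcription factor of the acute phase, averaged 12.04 ± 3.16 TPM in the 4 ZT20 samples against 19.8 ± 3.86 TPM in the 3 ZT8 samples (limma adjusted p = 0.0775), and its groups did not overlap, with ZT20 below. It passed under median-ratio scaling and quantile normalization (limma adjusted p = 0.0242 and 0.0228).

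Paralogues of the members gave 1 call in 10 tested genes: Klf13 rose. Klf13, a zinc finger factor related to Klf9 that has been placed with it downstream of glucocorticoid signals, reached 74.1, 124, 64.3 and 65.0 TPM in replicates 1 to 4 of ZT20 and 21.3, 34.8 and 15.2 TPM in replicates 1 to 3 of ZT8. The log2 difference was 1.76 (SE 0.31, limma adjusted p = 0.0103), and it was 1.41 with the length trend removed and 1.52 under median-ratio scaling, each still past the threshold. Without ZT20 replicates 3 and 4 it was 2.04 (limma adjusted p = 0.119). Cdkn1b, the paralogue of Cdkn1a that encodes p27, was at 7.07 TPM against 3.35 TPM, and Tsc22d2 at 5.22 TPM against 2.31 TPM (limma adjusted p = 0.0606 and 0.0722). Without ZT8 replicate 2 their log2 differences went from 0.95 to 0.61 and from 1.02 to 0.60, and without ZT8 replicate 1 Tsc22d2 passed (1.30, limma adjusted p = 0.0441). Cdkn1b passed with array weights (0.73, limma adjusted p = 0.0299). Another paralogue, Cdkn1c, which encodes p57 and was picked out after its values were seen, had a log2 difference of −0.64 (limma adjusted p = 0.373) and was called lower with array weights (−1.19) and without ZT8 replicate 2 (−1.26, limma adjusted p = 0.0188).

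Members that respond to other signals were set beside genes of those signals. Of metal-handling genes 0 of 5 tested genes passed. The 2 with an unadjusted limma p under 0.05 were Slc39a14 and Mt3, and Mt3 is also counted among the paralogues. The length correction and array weights each gave 1 higher, as did leaving out ZT8 replicate 2. Slc39a14, a zinc and iron importer, averaged 2.74 ± 0.70 TPM in the 4 ZT20 samples against 1.16 ± 0.914 TPM in the 3 ZT8 samples (limma adjusted p = 0.126), and its log2 difference of 0.88 was 0.46 without ZT8 replicate 2. Of the p53 list, which holds Trp53 itself beside p53 targets, 1 of 10 tested genes passed. Zmat3, a zinc finger RNA-binding protein, rose from 6.63 ± 1.27 TPM in the 3 ZT8 samples to 14.4 ± 2.59 TPM in the 4 ZT20 samples (log2 difference 1.01, limma adjusted p = 0.0163). Its call was lost with the length trend removed (0.61, limma adjusted p = 0.0738), with the replicate block, with the marker score as covariate, and without ZT20 replicate 3, ZT20 replicate 4 or both. The p53 target Bax, a pore-forming apoptosis protein, had its ZT20 values below all ZT8 values (131 ± 6.84 TPM in 4 samples against 173 ± 30.6 TPM in 3, limma adjusted p = 0.0803), whereas Ccng1 had them above (limma adjusted p = 0.0509). Bax passed under median-ratio scaling and with array weights, but its log2 difference of −0.39 was −0.25 without ZT8 replicate 2 and −0.080 with the length trend removed. Ccng1 passed in 5 alternatives and was 0.31 under median-ratio scaling. Of the EGF receptor family, which the product of Errfi1 inhibits, 0 of 3 tested genes passed or had an unadjusted limma p under 0.05, with Egfr at 4.32 ± 0.763 TPM in the 4 ZT20 samples against 6.97 ± 5.27 TPM in the 3 ZT8 samples (log2 difference −0.40, and 0.11 without ZT8 replicate 2).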

How the data were processed

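RNA from 4 ZT20 and 3 ZT8 samples was sequenced by the authors, who deposited TPM values with a column per sample; 0 columns were left unused. The submitters' processing notes name Trim Galore 0.6.6, Salmon 1.6.0, FastQC 0.11.9, DESeq2 1.34.0 and GRCm39, with no role or order; the annotation release, strand setting and scaling between samples are not given in the sources used here. Each TPM column sums to 1000000, and depth cannot be recovered from it.

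Values were analysed as log2(TPM + 1), which understates differences of low genes. The 14800 genes averaging 1 TPM or more were fitted with limma 3.58.1 (R 4.3.3, eBayes with an intensity trend, no covariate, two-sided, Benjamini-Hochberg over all tested genes, threshold 0.05). The procedure was first run on simulated data for 14800 genes. With 200 genes shifted by a log2 size of 0.6, no gene passed. At a size of 1.5 there were 153 calls, which held 71% of the shifted genes and 11 unshifted ones. Without any shift there were 0 calls. Ratios within a library and marker sums were compared by exact permutation over 35 splits. Nothing in the labels says that samples came from separate animals, so p-values measure the spread between these samples, which may be technical.

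Members and gene lists were chosen with earlier results of these data known. Named genes are all members and, in each list, up to 4 tested genes with the smallest adjusted p. The list members Hsd11b2 and Cdkn1c were added after their values were seen. Some genes that this rule picks are not reported here. Alternatives were adding 0.1 in place of 1, testing every gene, requiring an average of 5 TPM, 2 other scalings, removal of mitochondrially encoded genes, the replicate number as a block, a covariate that sets neuron markers against those of other cells, no intensity trend, array weights, a loess trend on longest transcript length removed (span 0.3; lengths from GENCODE M21, a GRCm38 annotation matched by identifier, known for 99.6% of tested genes), and samples left out. Promoter sequences came from RefSeq on GRCm38.p6.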

Additional observations from a re-analysis of the deposited data

Results flagged for a closer look

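Among the 4 ZT20 samples 1 sample stood far from the others for 5 of 42 values examined, the members, their ratios and the genes picked from each list. Its gap to the nearest other sample took more than 0.829 of the range, a share that chance exceeds in about 1 of 20 groups, and none of the 5 was a member. Lcn2 was at 86.1 TPM in ZT20 replicate 1, with a gap of 0.953 of the range. Hsd11b1 was at 11.02 TPM in the same sample (0.888). Klf13 was at 124 TPM in ZT20 replicate 2 (0.835). Stip1, an HSP90 co-chaperone, was at 336 TPM in ZT20 replicate 4 (0.900), and Egfr was at 3.19 TPM, the lowest, in ZT20 replicate 3 (0.839).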

How the results depend on the processing

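The number of called members (1, Nr3c2) was 0 with a pseudocount of 0.1, without a filter, with a mean of at least 5 TPM (where Nr3c2 was not tested), under median-ratio scaling, under quantile normalization, with the replicate block, with the marker score as covariate and without ZT20 replicates 3 and 4. It was 2 without the intensity trend and 5 with array weights, and 0 to 4 when 1 sample was left out at a time, the 4 being without ZT8 replicate 2. With the length trend removed the count was again 1, but the gene was Mt1. No member was called lower at ZT20 in any of the 19 alternatives.

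All called genes numbered 1178 without a filter, 1174 with the replicate block, 233 with the marker score, 3899 with array weights, 1538 with the length trend removed and 0 without ZT20 replicates 3 and 4 (2378 with an unadjusted limma p under 0.05), and 723 to 3047 when 1 sample was left out. The difference changed sign for Tsc22d3 under median-ratio scaling (−0.15) and without ZT20 replicates 3 and 4 (−0.0027), and for Mt2 under median-ratio scaling (−0.018) and quantile normalization (−0.029). For Nr3c1 it ran from −0.25 to 0.13 when 1 sample was left out. None of these sign changes involved a called value, and the causes were not tested. The labels do not say that replicate numbers pair samples. Deviations of same-numbered samples correlated at −0.0141, 0.153 and 0.083 across genes, and those of differently numbered samples at −0.168 to 0.15. No pairing was assumed, and ZT20 replicate 4 has no partner in the block. Unknown depth limits low genes most, Nr3c2 in ZT8 replicate 2 above all.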

Other observations

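ZT20 replicate 1 stood out for several genes at once. It had the highest Mt1 (184 TPM), Mt2 (34.2 TPM), Mt3 (344 TPM) and Lcn2 (86.1 TPM) of the 7 samples and the lowest Nr3c1 (8.29 TPM). Its summed macrophage markers (9 genes) were 693 TPM, against 328 to 449 TPM in the other ZT20 samples and 335 to 762 TPM at ZT8. Most of that sum was Lyz2, at 525 TPM against 199 to 264 TPM in the other ZT20 samples. Cd14 was also highest of the 7 samples there (52.2 TPM), whereas Aif1 was lowest (6.99 TPM). Within ZT20 the gap of this sample to its nearest neighbour took 0.818 of the range for Mt1, 0.794 for Mt2, 0.720 for Nr3c1 and 0.698 for Mt3, each under the 95% critical share of 0.829 for 4 samples, and 0.953 for Lcn2, which is above it. These values were picked after they were seen and their relation was not tested.

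Some members differed between the ZT20 libraries with and without clear Y-linked transcripts. Sgk1 was at 15.8 and 15.4 TPM in the 2 libraries where these were at or near 0 and at 8.63 to 12.03 TPM in the 5 other libraries, ZT8 included. Errfi1, Nr3c2, Fkbp5 and Tsc22d3 were also highest in these 2 libraries (18.1 and 19.4 TPM, 5.76 and 6.42 TPM, 12.3 and 11.9 TPM, 312 and 328 TPM), so 5 of the 10 members were, beside 19.4% of the 14800 tested genes. Cdkn1a was lower there (203 and 227 TPM) than in ZT20 replicates 1 and 2 (262 and 299.6 TPM). With 2 libraries, both at ZT20, no test was made.

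The genes most like Fkbp5 over the 7 samples, by root mean square difference of z-scored log2(TPM + 1), were Ppip5k2 (0.0841), Castor2 (0.112) and Ccp110 (0.114), all of which separated the groups. Among the members Errfi1 was nearest to Fkbp5 (0.553) and Nr3c1 farthest (1.40). The genes most like Nr3c1 were Gm43079 (0.196), Ell2 (0.220) and Acss2 (0.232), which like it were lowest in ZT20 replicate 1. No member came nearer to Nr3c1 than Sgk1 (1.15). With 7 samples and 14800 genes such closeness is a description only.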
